A study of Mus musculus with 6 samples.

Results

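Collagen genes were examined in skin of 3 mice under chronic restraint stress (CRS) for 12 weeks and 3 control mice (CON) of the same 12-week experiment. Restraint, in which an animal is held immobile in repeated sessions, is used as a model of psychological stress, and the title of the series concerns pigment formation under such stress. The sources used here name no strain, age, sex or site of the skin, and every cell type of the tissue can contribute to the RNA. The genes were the protein-coding genes whose symbol reads Col, a number, a and a number, with a mean of at least 0.1 FPKM (fragments per kilobase of exon, scaled by library size) over the 6 libraries. There were 40 of them among 28389 genes that passed the same threshold and 54146 gene IDs in all: 10 fibrillar chains, 5 chains of type IV and 25 others. A further 4 collagen genes, Col2a1, Col4a6, Col9a2 and Col22a1, lay under the threshold.

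Collagens are built of 3 chains wound into a triple helix. Fibrillar types I, III and V, made mainly by fibroblasts, form the banded fibres that give dermis its strength. Type IV builds the sheet of basement membranes, types VII and XVII anchor the epidermis to the dermis, and type VI forms beaded filaments around cells. Other types decorate fibrils (the FACIT group) or sit in cell membranes.

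Of the 40 genes, 33 had an entry among the RefSeq promoters (GRCm38.p6). The 250 bases before the RefSeq start are shown for 4 genes. Col3a1, Col5a1 and Col6a3 were picked, by no further rule, from the 11 genes with their lowest value in CON replicate 1. Each has a single window free of annotated exons, as has Col11a1, which was lowest in that library too and is not shown. Col10a1 is shown because each of its CRS values lay above each CON value. Capitals mark matches on either strand to TATAAA (the TATA box), GGGCGG (the GC box), CCAAT (the CCAAT box) and CAGAC (the core of the Smad-binding element, bound by Smad proteins of the TGF-beta pathway).
Col3a1, chr1:45311288-45311537, plus strand: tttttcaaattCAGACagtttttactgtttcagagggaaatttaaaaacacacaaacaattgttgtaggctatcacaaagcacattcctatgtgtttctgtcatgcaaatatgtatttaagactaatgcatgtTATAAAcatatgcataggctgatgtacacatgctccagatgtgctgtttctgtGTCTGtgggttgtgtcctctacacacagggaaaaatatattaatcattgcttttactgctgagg
Col5a1, chr2:27886175-27886424, plus strand: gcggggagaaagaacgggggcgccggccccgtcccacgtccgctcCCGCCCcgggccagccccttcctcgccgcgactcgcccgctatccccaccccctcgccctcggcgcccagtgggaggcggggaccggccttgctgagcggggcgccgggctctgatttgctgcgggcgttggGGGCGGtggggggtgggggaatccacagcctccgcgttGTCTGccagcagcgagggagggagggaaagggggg
Col6a3, chr1:90843972-90844221, minus strand: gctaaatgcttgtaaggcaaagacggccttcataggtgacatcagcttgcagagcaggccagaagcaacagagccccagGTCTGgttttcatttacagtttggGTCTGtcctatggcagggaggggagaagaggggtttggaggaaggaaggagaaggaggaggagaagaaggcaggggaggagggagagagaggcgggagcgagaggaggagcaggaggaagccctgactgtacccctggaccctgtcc
Col10a1, chr10:34389731-34389980, plus strand: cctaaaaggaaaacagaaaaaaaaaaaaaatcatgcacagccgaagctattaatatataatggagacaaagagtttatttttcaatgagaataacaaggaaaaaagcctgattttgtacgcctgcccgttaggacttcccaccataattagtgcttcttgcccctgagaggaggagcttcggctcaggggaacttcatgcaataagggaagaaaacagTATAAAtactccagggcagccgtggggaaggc
The window of Col3a1 held 1 TATAAA and 2 matches to CAGAC, that of Col5a1 held 2 GC boxes and 1 CAGAC, and that of Col6a3 held 2 matches to CAGAC. The window of Col6a1, also lowest in CON replicate 1, held no CAGAC, so the motif in the windows shown is not a trait of such genes. In Col10a1 TATAAA lay 32 to 27 bases before the start. Over the 36 windows of the collagen genes, 44.4% held CAGAC, 55.6% a GC box, 36.1% a CCAAT box and 13.9% TATAAA. Among the 32851 windows in the table the shares were 42.2%, 32.7%, 33.8% and 12.4%. These are letter matches, not measured binding.

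Several facts about the libraries touch the results below. Depth, recovered from the FPKM steps, ranged from 13.3 to 25.7 M fragments. The summed level of 10 skeletal muscle markers was 14590 FPKM in CON replicate 1 and 490.5 to 2856 FPKM in the other libraries, and mitochondrially encoded genes took 15.3% of the fragments there against 2.5% to 4.19% elsewhere. CON replicate 1 also held Xist at 2.80 FPKM beside Y-linked Ddx3y at 22.5 FPKM, while Xist was at most 0.168 FPKM in the other 5 libraries. Whether that library is 1 mouse was not tested. CRS replicate 2 departed by transcript length: among genes averaging 1 FPKM or more, those over 5000 nt had a median log2 deviation of 0.69 from their own mean there, and those up to 1000 nt of -1.18. CRS replicates 1 and 3 departed the other way, at -0.42 and -0.58 for the long genes and 0.76 and 0.19 for the short. The CON libraries lay at -0.02 to 0.25 for the long genes. Fibroblast markers (12 of 12 passed the threshold) summed to 217.5 FPKM in CON replicate 1, 652.3 and 458.5 FPKM in CON replicates 2 and 3, and 450.0 to 488.1 FPKM in CRS. All 8 basal keratinocyte markers passed and summed to 1547 to 2510 FPKM, so markers of fibroblasts and of basal keratinocytes were both present. The labels say skin and name no cell type. In bulk tissue, fewer cells of a type and less RNA per cell cannot be told apart.

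No collagen gene passed the adjusted threshold between CRS and CON. With limma on log2(FPKM + 0.1), 0 of the 40 had an adjusted p under 0.05, as did 0 of all genes tested (0.0%). At an unadjusted p under 0.05 there were 0 of 40, against 2.55% of all genes (0.919% higher and 1.63% lower in CRS). Run by voom on recovered fragments, limma also called 0, with 1 collagen gene, Col10a1, at an unadjusted p under 0.05. Fold changes were above 0 in 25 of 40 (62.5%), against 32.2% of all genes. That count was 17 of 40 with constant-sum scaling, where the median of all genes was -0.44, and 33 of 40 with median-ratio scaling, where it was 0.004. The median log2 fold change was 0.33 for the fibrillar chains, 0.22 for type IV and 0.04 for the others, against -0.20 over all genes tested. The spread of a class median between replicates of a group was 0.58, 0.57 and 0.45 on the log2 scale, larger than each of these medians. Without CRS replicate 2, 11 of 40 were above 0 (38.8% of all genes), and 11 of 40 had groups that did not overlap, 1 higher and 10 lower in CRS. Over all genes 34.8% then had no overlap, 7.46% higher and 27.4% lower. Without both CON replicate 1 and CRS replicate 2 the class medians were -0.41, -0.24 and -0.27, with 8 of 40 above 0 (37.5% of all genes). In that fit 1 gene was higher and 15 were lower without overlap, against 10.5% and 31.1% of all genes. Both fits keep CRS replicates 1 and 3, where genes over 5000 nt were low. The shares of all genes are not matched for length. Values for the fit without both libraries after a length and GC correction are given below. Of the 25 genes above 0 with all libraries, 15 were under 0 without CRS replicate 2, 9 without CON replicate 1 and 18 without both. Unadjusted p-values under 0.05 also appeared with fewer libraries or weights. Col5a3, Col15a1, Col4a5 and Col16a1 were lower at that level without CRS replicate 2 (14.6% of all genes were) and with limma array weights (23.0% of all genes). Without both libraries Col15a1, Col4a5, Col12a1 and Col16a1 were lower (10.9% of all genes) and Col10a1 higher. At that level Col3a1 was higher without CON replicate 2, and Col10a1 was higher without CRS replicate 1. No share of all genes is given for voom or for the genes higher in these fits, so those hits cannot be weighed against the background. The sign of the class medians thus differed with the libraries used.

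**Figure D1:**
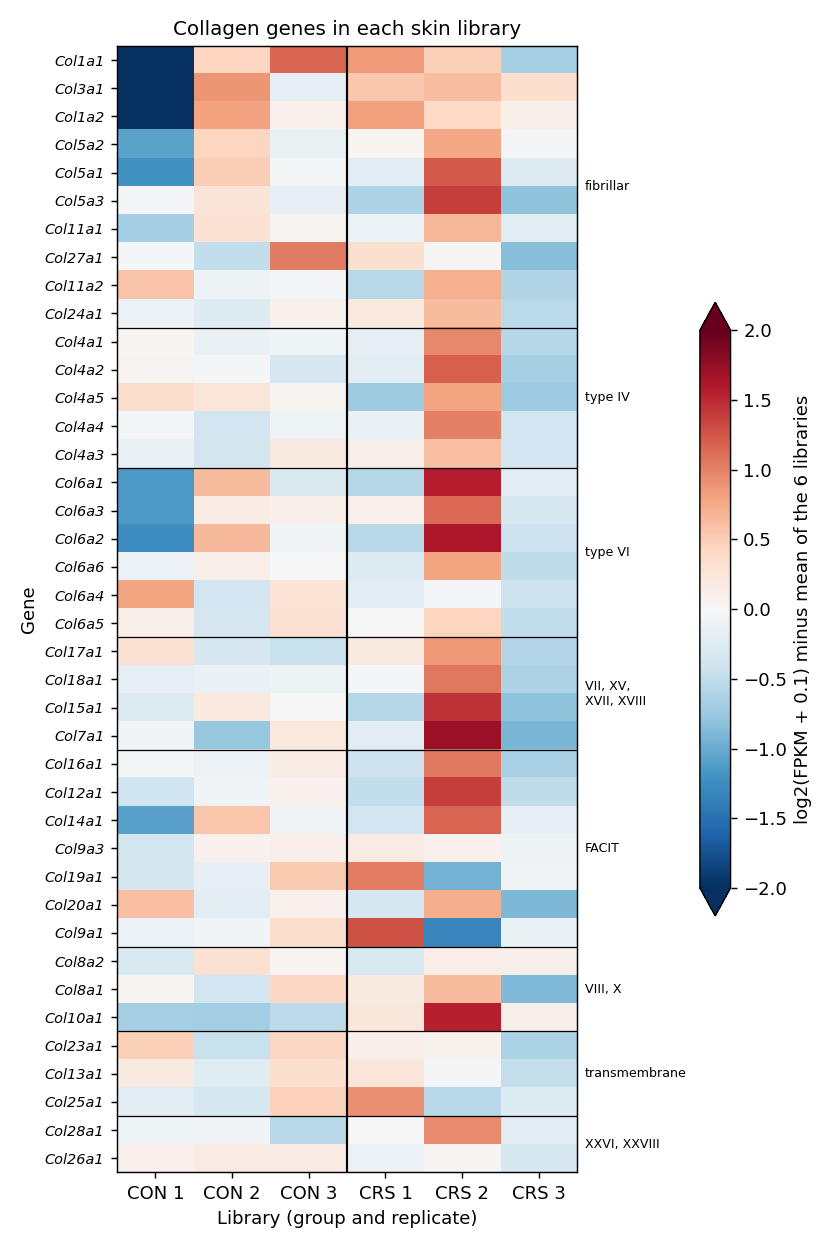
Heat map of the 40 collagen genes (rows, by structural class and mean level) in the 6 libraries (columns); colour gives log2(FPKM + 0.1) minus the gene's mean over the libraries, saturated beyond 2 in either direction. The column of CRS replicate 2 holds the highest value of 27 genes, and CON replicate 1 holds the lowest values of the type I and III chains.

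Types I and III made up most of the collagen signal in 5 of 6 libraries. Values by library are given here in the order of replicates 1 to 3. Col1a1, the main chain of type I collagen, had control values of 58.6, 376 and 631 FPKM and stress values of 504, 391 and 176 FPKM. The groups overlapped, since both the lowest and the highest value were CON libraries. The fold change on the log2 scale was 0.44 (SE 0.86), with a limma adjusted p of 0.9999, and it was -0.58 without CON replicate 1. Col1a2, the partner chain of type I, read 31.6, 257 and 157 FPKM among controls, against 259, 194 and 159 FPKM under restraint. Its log2 fold change of 0.88 (SE 0.72) became -0.01 without CON replicate 1. Col3a1, which forms the homotrimer of type III found with type I in skin, gave 35.2, 298 and 141 FPKM in CON replicates 1 to 3, and its CRS replicates gave 235, 247 and 203 FPKM. Its 3 CRS values lay close together, inside the range of the CON values. The log2 fold change of Col3a1 was 1.00 (SE 0.70), and 0.15 without CON replicate 1. That library held the lowest value of these chains, below the median of the other libraries by 6.66-fold for Col1a1, 6.67-fold for Col3a1 and 6.13-fold for Col1a2. Fibroblast markers were also lowest there in 11 of 12 genes, and macrophage markers in 8 of 8. The part of library makeup in the low collagen values was not tested. As a share of summed collagen FPKM, types I and III came to 45.3% in CON replicate 1 and 68.5% to 86.2% in the others.

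**Figure D2:**
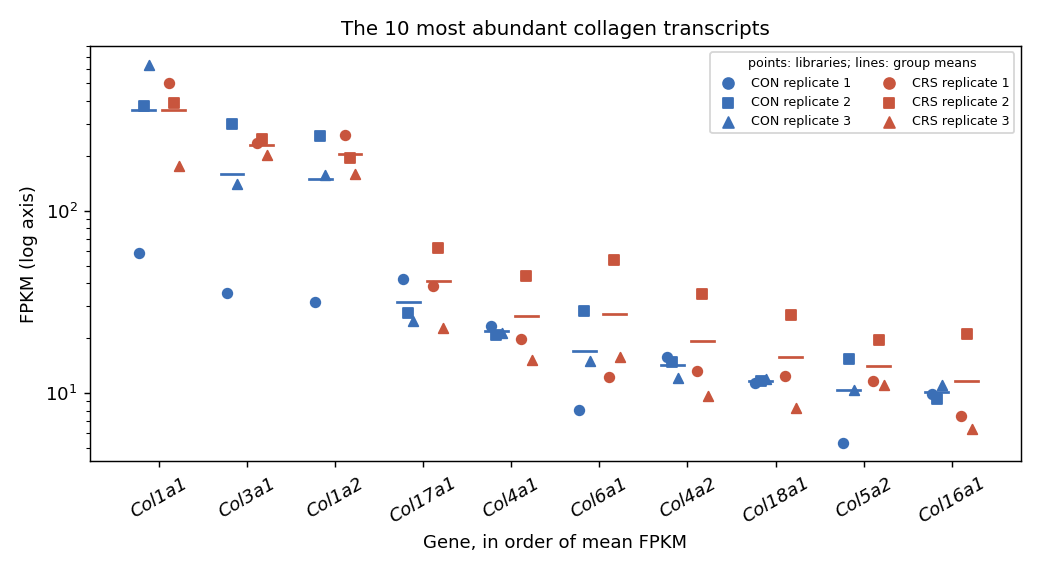
FPKM on a log axis of the 10 collagen genes with the highest mean; each point is a library, coloured by group and shaped by replicate number, and short lines are group means. Type I and III chains lie above the rest except in CON replicate 1, and for the other 7 genes the highest point is CRS replicate 2.

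Type V, which joins type I fibrils in small amounts and limits their width, shared that low value for 2 of its 3 chains. Col5a1 had control values of 3.35, 11.02 and 7.72 FPKM and stress values of 6.65, 18.6 and 6.53 FPKM. Col5a2 read 5.35, 15.4 and 10.4 FPKM among controls, against 11.7, 19.6 and 11.1 FPKM under restraint. Both were lowest in CON replicate 1 and highest in CRS replicate 2, and the groups overlapped. Their log2 fold changes were 0.49 (SE 0.56) and 0.52 (SE 0.44). Without CON replicate 1 they were 0.014 and 0.11, and without CRS replicate 2 -0.00039 and 0.26. Col5a3, the remaining chain, gave 2.48, 3.07 and 2.27 FPKM in CON replicates 1 to 3, and its CRS replicates gave 1.62, 6.78 and 1.42 FPKM. CRS replicate 2 alone exceeded the CON libraries in that gene, and the other CRS libraries lay under them. Col11a1, a chain of the minor fibrillar type XI best known from cartilage, had control values of 0.565, 1.201 and 1.004 FPKM and stress values of 0.881, 1.59 and 0.819 FPKM. Col27a1, a fibrillar chain of developing cartilage, read 0.556, 0.378 and 1.28 FPKM among controls, against 0.739, 0.585 and 0.274 FPKM under restraint. CON replicate 3 was highest in Col27a1, and chondrocyte markers summed highest there as well, at 102.2 FPKM against 30.7 to 61.9 FPKM elsewhere (3 of those 8 markers were at 0 in a library). The part of cartilage in these values was not tested. Across the 10 fibrillar genes, 6 were lowest in CON replicate 1, against 13.5% of all genes tested.

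Among type IV chains, CRS replicate 2 stood apart. Col4a1, which with Col4a2 forms the network of most basement membranes, gave 23.4, 20.7 and 21.3 FPKM in CON replicates 1 to 3, and its CRS replicates gave 19.8, 44.0 and 15.2 FPKM. Col4a2 had control values of 15.8, 14.8 and 12.1 FPKM and stress values of 13.2, 35.0 and 9.64 FPKM. CRS replicate 2 was 2.13-fold above the median of the other libraries for Col4a1 and 2.66-fold for Col4a2. The other CRS values of Col4a1 lay under the CON range, and those of Col4a2 lay inside it in replicate 1 and under it in replicate 3. Log2 fold changes were 0.12 (SE 0.41) and 0.22 (SE 0.47), and both were -0.33 without CRS replicate 2. Col4a5, a chain mutated in Alport syndrome, read 3.04, 2.80 and 2.44 FPKM among controls, against 1.41, 4.14 and 1.39 FPKM under restraint. It was the 1 gene of the class with a fold change under 0, at -0.43 (SE 0.48). Without CRS replicate 2 its value was -0.93, with a limma adjusted p of 0.1936, the lowest of the 40 genes in that fit. Col4a6, which lies head to head with Col4a5 on the X chromosome, was under the threshold at 0 to 12 fragments per library. Col4a3 and Col4a4, the remaining chains of the Alport network, had means of 0.43 and 0.55 FPKM. All 5 chains were highest in CRS replicate 2, and 4 of 5 were lowest in CRS replicate 3, against 29.2% and 25.1% of all genes. All 5 are over 5000 nt, and of all genes over that length 61.2% were highest in CRS replicate 2 and 55.1% lowest in CRS replicate 3. Endothelial markers, from cells that lay down type IV, had fold changes under 0 in 8 of 8 genes and summed to 24.1 to 53.5 FPKM in CON, with replicate 1 highest, and 14.5 to 38.6 FPKM in CRS. Their part in the type IV values was not tested.

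Collagens of the epidermal junction and of vessel walls were highest and lowest in the same libraries as type IV. Col17a1, a transmembrane collagen of the hemidesmosomes of basal keratinocytes, had the highest mean FPKM outside types I and III. Col17a1 gave 42.1, 27.4 and 25.0 FPKM in CON replicates 1 to 3, and its CRS replicates gave 38.5, 62.3 and 22.6 FPKM. Its fold change on the log2 scale was 0.30 (SE 0.42). Col7a1, the anchoring fibril collagen, had control values of 0.992, 0.571 and 1.21 FPKM and stress values of 0.879, 3.62 and 0.497 FPKM. CRS replicate 2 held 958 fragments of Col7a1 and was 4.12-fold above the median of the others. Col18a1, whose C-terminal fragment is endostatin, read 11.3, 11.7 and 11.9 FPKM among controls, against 12.4, 26.6 and 8.32 FPKM under restraint. The CON libraries were nearly equal for Col18a1, at 11.6 ± 0.293 FPKM (SD, n = 3), and the CRS libraries lay on both sides of them, at 15.8 ± 9.62 FPKM. Col15a1, found in vessel and muscle basement membranes, gave 3.94, 5.52 and 4.82 FPKM in CON replicates 1 to 3, and its CRS replicates gave 3.19, 13.1 and 2.69 FPKM. All 4 genes were highest in CRS replicate 2 and lowest in CRS replicate 3. Without CRS replicate 2 their log2 fold changes were -0.056 (Col17a1), -0.37 (Col7a1), -0.19 (Col18a1) and -0.67 (Col15a1). Basal keratinocyte markers were highest in CRS replicate 2 in 6 of 8 genes, and their part in the Col17a1 and Col7a1 values was not tested.

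Type VI filaments tie cells to the surrounding matrix in dermis, fat and muscle. Col6a1 had control values of 8.12, 28.3 and 14.9 FPKM and stress values of 12.2, 53.9 and 15.7 FPKM. Col6a2 read 2.92, 11.2 and 6.83 FPKM among controls, against 4.82, 22.0 and 5.29 FPKM under restraint. Col6a3 gave 3.75, 9.34 and 8.98 FPKM in CON replicates 1 to 3, and its CRS replicates gave 8.88, 18.6 and 6.66 FPKM. These 3 major chains were lowest in CON replicate 1 and highest in CRS replicate 2, with CON replicate 2 next for each, and the groups overlapped. On the log2 scale the fold changes were 0.53 (SE 0.63) for Col6a1, 0.44 (SE 0.67) for Col6a2 and 0.59 (SE 0.50) for Col6a3. They were 0.084, -0.079 and 0.17 without CON replicate 1, and -0.13, -0.26 and 0.17 without CRS replicate 2. The minor chains Col6a4, Col6a5 and Col6a6 had means of 0.13, 0.11 and 0.47 FPKM, and none was lowest in CON replicate 1. Col6a4 was highest there, at 0.285 FPKM against 0.0651 to 0.168 FPKM elsewhere.

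The FACIT collagens, which bind along fibrils, split in their pattern. Col16a1 had control values of 9.92, 9.28 and 11.1 FPKM and stress values of 7.50, 20.9 and 6.33 FPKM. Col12a1, found on type I fibrils, read 3.14, 3.97 and 4.46 FPKM among controls, against 2.94, 11.1 and 2.90 FPKM under restraint. For both genes CRS replicates 1 and 3 were under every CON library and CRS replicate 2 was above all of them. Col14a1, also on type I fibrils, gave 1.69, 5.43 and 3.54 FPKM in CON replicates 1 to 3, and its CRS replicates gave 2.79, 8.34 and 3.23 FPKM. It was lowest in CON replicate 1 and highest in CRS replicate 2, as the major type VI chains were. Log2 fold changes of these 3 genes were -0.01 (SE 0.46), 0.25 (SE 0.54) and 0.39 (SE 0.56). Without CRS replicate 2 they were -0.54, -0.38 and -0.09, and Col14a1 was also under 0, at -0.05, without CON replicate 1. Col9a1, a cartilage FACIT, had control values of 0.167, 0.178 and 0.267 FPKM and stress values of 0.595, 0.0153 and 0.164 FPKM. Col19a1 read 0.1997, 0.248 and 0.459 FPKM among controls, against 0.687, 0.102 and 0.271 FPKM under restraint. Both of these scarce genes were highest in CRS replicate 1 and lowest in CRS replicate 2, where Col9a1 rested on 2 fragments. Col9a3 stayed between 0.371 and 0.580 FPKM in all 6 libraries.

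Short-chain collagens, transmembrane collagens other than Col17a1, and the remaining collagens were scarce. Col10a1, the short-chain collagen that marks hypertrophic cartilage, gave 0.0338, 0.0321 and 0.0481 FPKM in CON replicates 1 to 3, and its CRS replicates gave 0.149, 0.522 and 0.127 FPKM. Each CRS value was above each CON value, on 2 fragments in each CON library and 9, 42 and 10 in CRS. Summed over the groups, the fragments gave a ratio of 7.55 (95% exact interval 3.28 to 21.4, counting error only). The interval leaves out the spread between mice, and it is given for a gene picked by its lack of overlap. CRS replicate 2 supplied 42 of the 61 CRS fragments, and without it the ratio was 3.71 (1.43 to 11.4) and the log2 fold change 0.79. With all 6 libraries the log2 fold change of Col10a1 was 1.25 (SE 0.61), with a limma adjusted p of 0.9999. The exact permutation p was 0.1, the smallest that 3 against 3 allows. Any gene without overlap gets that value, so it adds nothing to the lack of overlap by which Col10a1 was picked. Col26a1, the other gene without overlap, had control values of 0.168, 0.184 and 0.184 FPKM and stress values of 0.134, 0.157 and 0.102 FPKM, on 20 to 33 fragments per library. Its log2 fold change was -0.28 (SE 0.53). Summed fragments of Col26a1 gave a ratio of 0.733 (95% exact interval 0.526 to 1.02, counting error only). These 2 of 40 genes, 1 higher and 1 lower, compare with 6.84% of all genes tested (1.65% higher and 5.19% lower), so the share was near the background. It was 4 of 40 with median-ratio scaling (5.65% of all genes) and 1 of 40 with constant-sum scaling (7.39%). Col8a1 and Col8a2, short chains of vessel and corneal membranes, had log2 fold changes of -0.05 and -0.04. The transmembrane genes other than Col17a1, which were Col23a1, Col13a1 and Col25a1, had means of 1.79, 0.61 and 0.18 FPKM. None of them was highest in CRS replicate 2, as Col17a1 was. Col28a1, a collagen of peripheral nerve, read 0.528, 0.542 and 0.353 FPKM among controls, against 0.562, 1.18 and 0.477 FPKM under restraint. At the 0.1 FPKM threshold, Col6a5 and Col24a1 lay just inside with means of 0.105 and 0.113 FPKM, and Col9a2 and Col22a1 just outside with 0.0867 and 0.0801 FPKM.

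**Figure D3:**
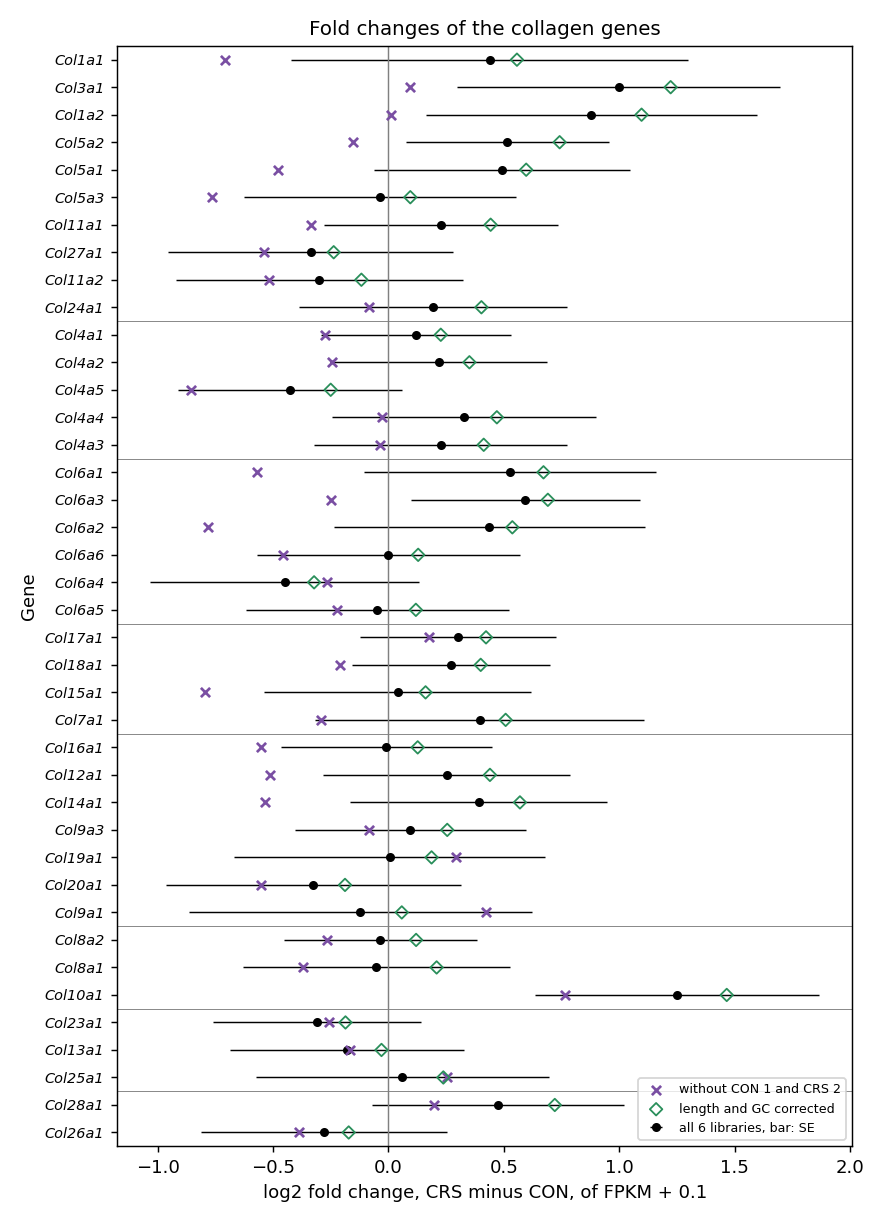
Log2 fold changes (CRS minus CON, of FPKM + 0.1) of the 40 genes by class: black points with SE bars for all 6 libraries, crosses without CON replicate 1 and CRS replicate 2, diamonds after a correction for transcript length and GC content. Crosses lie under 0 for 32 genes and diamonds above 0 for 32.

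Collagen transcripts are long, and length ordered these libraries. The merged exons of the 40 genes had a median of 7242.5 nt (range 3130 to 15228), against 2333 nt over all genes tested, and 34 of 40 were over 5000 nt, against 22.8%. CRS replicate 2 held the highest value of 27 of the 40 genes (67.5%) and of 29.2% of all genes. Among genes over 5000 nt the shares came to 24 of 34 collagen genes (70.6%) and 61.2% of all such genes. When each library's trend with length and GC content was subtracted, CRS replicate 2 was highest in 10 of 40 genes and CRS replicate 1 in 18, against 26% and 24.9% of all genes. CON replicate 1 was then lowest in 18 of 40, up from 11, and in 15.7% of all genes. In those corrected values the fibrillar median of CON replicate 1 was -1.13, the lowest of the 6 libraries, while that of CRS replicate 2 went from 0.65 to -0.07. Corrected log2 fold changes had medians of 0.50 for fibrillar, 0.35 for type IV and 0.21 for other genes, with 0.03 over all genes. Of the 40 genes, 32 were above 0 (53.4% of all genes). With limma 0 passed the adjusted threshold, and 1, Col10a1, had an unadjusted p under 0.05. No share of all genes at that level is given for the corrected fit, so that count cannot be weighed against the background. Groups did not overlap in 6 genes, all higher in CRS, against 8.76% of all genes (5.64% higher and 3.13% lower). These were Col4a1, Col18a1, Col28a1, Col4a4, Col10a1 and Col24a1. Leaving out CON replicate 1 and CRS replicate 2 as well gave corrected medians of 0.17, 0.32 and 0.22. Groups then did not overlap in 15 of the 40 genes, 13 higher and 2 lower in CRS, against 36.1% of all genes in either direction. The share by direction is not given for that fit, so the split cannot be weighed against the background.

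**Figure D4:**
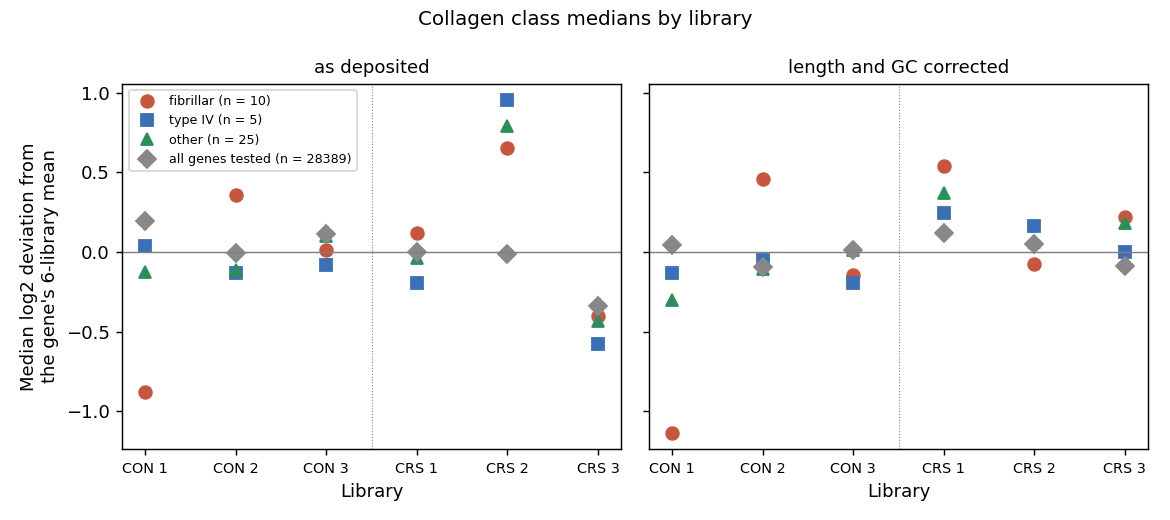
Median log2 deviation from each gene's mean over the 6 libraries, by class and library, as deposited (left) and after the length and GC correction (right); grey diamonds are all genes tested. The CRS replicate 2 medians, 0.65 to 0.95 on the left, lie between -0.07 and 0.17 on the right, and the fibrillar median of CON replicate 1 is the lowest fibrillar value in both.

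Pairs of chains were compared within a library, where library size cancels. All are chains of 1 collagen type except Col3a1/Col1a1, which sets type III against type I. FPKM is per length of merged exons, and a ratio is no count of chains per molecule. A library's trend with length does not cancel where the chains differ in length, as Col6a1 (4380 nt) and Col6a2 (8326 nt) do. The ratios were not corrected for it. Col6a1/Col6a2 had the narrowest range, at 2.78, 2.54 and 2.18 in CON and 2.53, 2.45 and 2.97 in CRS (1.36-fold). Col4a1/Col4a2 followed, at 1.48, 1.40 and 1.77 in CON and 1.505, 1.26 and 1.57 in CRS (1.41-fold). The RefSeq starts of those type IV genes lie head to head on opposite strands of chromosome 8, at 11312826 and 11312805 (GRCm38.p6). Across libraries the level of Col4a2 spanned 3.63-fold and that of Col6a2 7.52-fold, so both pairs kept nearer to 1 ratio than the levels did. Col1a1/Col1a2 ranged more widely, at 1.85, 1.47 and 4.01 in CON and 1.95, 2.01 and 1.11 in CRS, a 3.61-fold range with CON replicate 3 highest. The level of Col1a1 spanned 10.8-fold and that of Col1a2 8.18-fold, so this ratio also ranged less than its chains. Col3a1/Col1a1 ran from 0.223 in CON replicate 3 to 1.15 in CRS replicate 3, a 5.16-fold range. Col5a1/Col5a2 stayed between 0.568 and 0.946, and Col6a3/Col6a1 between 0.330 and 0.730. Each ratio tested ranged less than the level of either chain, so that trait was not particular to a pair. No ratio of the 6 tested passed a threshold between CRS and CON: exact two-sided permutation p-values were 0.5 to 1.0 (adjusted over the 6, 0.9 or 1.0), where 0.1 is the smallest possible. The log2 difference was -0.44 (SE 0.52) for Col1a1/Col1a2, 0.56 (SE 0.68) for Col3a1/Col1a1 and -0.10 (SE 0.14) for Col4a1/Col4a2. Without CON replicate 3 the first was -0.013 and the second 0.017. Without CRS replicate 3 they were -0.16 and 0.20, so both differences depended most on these libraries. Col4a5/Col4a6 was not tested, as Col4a6 was at 0 in 2 libraries.

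**Figure D5:**
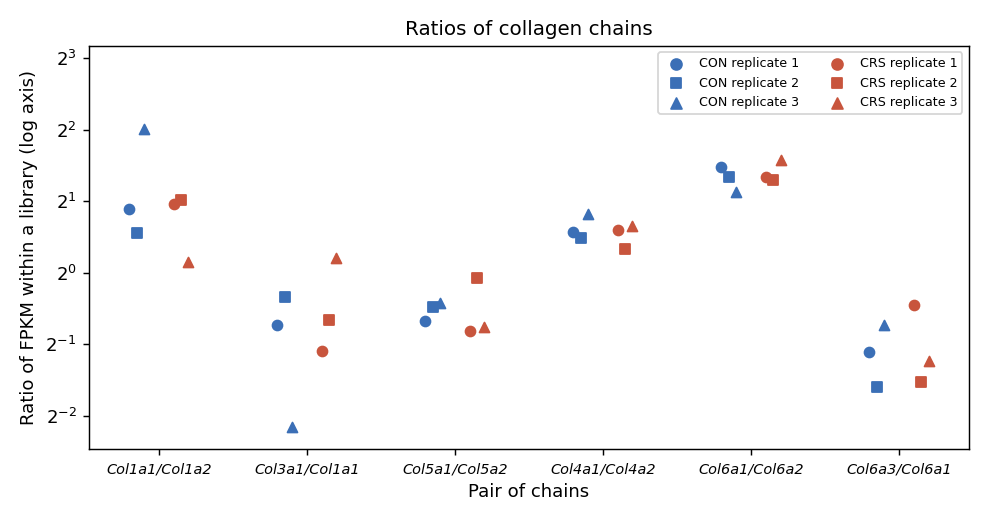
Ratio of FPKM of paired collagen chains within each library, on a log axis; points are libraries, coloured by group and shaped by replicate number. Col4a1/Col4a2 and Col6a1/Col6a2 cluster tightly, while CON replicate 3 lies at 4.01 for Col1a1/Col1a2 and at 0.223 for Col3a1/Col1a1.

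Genes that make, bind and remove collagen were counted from 7 lists, 83 distinct genes tested, of which 42 had fold changes above 0 and 41 under 0. With limma 0 passed the adjusted threshold, 1 had an unadjusted p under 0.05, and 3 (P4ha1, Crtap and Cebpb) had groups without overlap (3.61%, against 6.84% of all genes). Enzymes and chaperones of chain modification and folding were under 0 in 13 of 19 (median -0.08). P4ha1, the catalytic subunit of a prolyl hydroxylase that stabilises the helix, gave 7.03, 6.32 and 7.57 FPKM in CON replicates 1 to 3, and its CRS replicates gave 3.79, 6 and 3.26 FPKM, without overlap (log2 fold change -0.71, SE 0.34). Plod2, a lysyl hydroxylase that prepares cross-links, had 4.69 ± 0.933 FPKM among controls and 2.98 ± 1.52 FPKM under restraint (SD, n = 3). Fibril-binding proteoglycans and related genes were above 0 in 12 of 14 (median 0.37), and 11 of 14 had their lowest value in CON replicate 1, as the type I and III chains had. Fmod, a proteoglycan that guides fibril assembly, had control values of 0.7999, 2.11 and 0.956 FPKM and stress values of 1.92, 4.96 and 2.41 FPKM, with a log2 fold change of 1.2 (SE 0.53). Tnxb, the tenascin lost in a form of Ehlers-Danlos syndrome, was at 0.68 (SE 0.48).

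Propeptide-cleaving enzymes and their enhancers were above 0 in 8 of 9 (median 0.26). Pcolce, which speeds C-propeptide removal, was at 0.45 (SE 0.47) on the log2 scale, and Adamts2, the N-propeptidase, at 0.45 (SE 0.49). Cross-linking enzymes were above 0 in 4 of 6 (median 0.18), with the lysyl oxidase genes Loxl1 at 0.75 (SE 0.54) and Lox at 0.54 (SE 0.54). Collagen receptors were above 0 in 4 of 9 (median -0.15), with the integrin genes Itga10 at -0.78 (SE 0.62) and Itga1 at -0.42 (SE 0.46). Genes of collagen breakdown and its inhibitors were above 0 in 7 of 11 (median 0.17), and 7 of 11 were lowest in CON replicate 1. Among them the gelatinase gene Mmp2 was at 0.74 (SE 0.52) and the lysosomal protease gene Ctsk at 0.82 (SE 0.63). TGF-beta genes and transcription factors that act on collagen promoters were under 0 in 14 of 16 (median -0.31). Cebpb, a transcription factor, read 23.5, 12.6 and 42.2 FPKM among controls, against 12.1, 4.83 and 10.9 FPKM under restraint, without overlap. Its log2 fold change was -1.42 (SE 0.52), with an unadjusted limma p of 0.0244 and an adjusted p of 0.9999. Tgif1, a repressor of Smad signalling, was at -0.77 (SE 0.39). These medians stand beside -0.20 over all genes tested, of which 32.2% were above 0.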

How the data were processed

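RNA of 6 skin libraries was isolated with Trizol, per the labels' protocols. The deposited values are FPKM, 1 file per library, which the authors made from HISAT2 alignments to GRCm39, per the submitters' processing notes. Counting program, annotation and strand setting are not given in the sources used here, so overlapping antisense genes cannot be told apart. Each library was taken as 1 mouse, as the design gives 3 per group. Symbols and exon lengths are those of GENCODE M21 (GRCm38), which held 54079 of 54146 IDs. FPKM times length lay within 0.05 of a whole multiple of 1 step for 98.05% to 98.33% of values up to 100 fragments, which gave depth and fragments.

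CRS was compared with CON by limma 3.58.1 (R 4.3.3) on log2(FPKM + 0.1), a scale that understates changes of low genes, with a mean-variance trend, two-sided, and Benjamini-Hochberg adjustment over 28389 genes (threshold 0.05). Given by library were the 10 most abundant collagens, those without group overlap or at an unadjusted p under 0.05, their chain partners, and up to 3 examples per class by mean, and from each other list the 2 genes of lowest p. Other collagens (Col5a3, Col11a1, Col27a1, Col7a1, Col9a1, Col19a1, Col9a3, Col6a4) were added after their values were seen. Members and lists were chosen with earlier results of these data known. The main fit used no pairing by replicate number. Deviations from the group mean of same-numbered libraries correlated at -0.29, -0.04 and 0.10, and the highest value was 0.50, between CON replicate 3 and CRS replicate 1. Deviations within a group of 3 sum to 0 for each gene, so these values cannot exclude a pairing. Length and GC content trends were removed by lowess (span 0.3). The fit was tested on simulated data. Tables were made with Python 3.11.15. The alternatives were other pseudocounts, filters, scalings, variance models, covariates and libraries left out. Marker lists not described above, summed in FPKM over CON and over CRS libraries, were adipocyte (274.2 to 461.7 and 315.8 to 591.1), mural (129.9 to 294.7 and 102.4 to 170.2), Schwann (45.2 to 59.2 and 39.2 to 72.9), hair matrix (643.6 to 993.1 and 718.3 to 1362, 7 of 8 matched), dermal papilla (52.7 to 67.9 and 30.1 to 36.8) and macrophage (158.6 to 472.3 and 293.5 to 421.2).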

Additional observations from a re-analysis of the deposited data

How the results depend on the processing

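Under every alternative run, 0 collagen genes passed the adjusted limma threshold. At an unadjusted limma p under 0.05, Col10a1 was higher with median-ratio scaling and without the mean-variance trend. With the length and GC correction, Col6a1 was higher after adding the replicate block. Col17a1 was higher in corrected values without CON replicate 1 and CRS replicate 2. No share of all genes is given for these counts. Values are log2 fold changes, and the cause of a change was not tested. With array weights, which gave CRS replicate 2 a weight of 0.16 and CRS replicate 3 of 5.42, the medians were -0.23 (fibrillar), -0.43 (type IV) and -0.36 (other), and Col17a1 was -0.28, Col18a1 -0.38, Col1a1 -0.43, Col4a1 -0.43, Col4a2 -0.44, Col5a1 -0.055, Col6a1 -0.012, Col6a2 -0.25 and Col6a3 -0.022. With constant-sum scaling, which moved the median of all genes to -0.44, type IV was -0.051, other -0.14, Col4a1 -0.15 and Col4a2 -0.051, and 1 collagen gene had groups without overlap (7.39% of all genes). Median-ratio scaling, which moved it to 0.004, gave 4 such genes (5.65%) and Col16a1 at 0.23. The length and GC correction gave 6 such genes and Col16a1 at 0.13, also with the replicate block. The replicate block itself left medians at 0.33, 0.22 and 0.04 and changed no call, and libraries did not each correlate best with their own number (CON replicate 1 correlated at 0.41 with CRS replicate 2). A filter of 1 FPKM left 0 genes without overlap, and a pseudocount of 1 put Col16a1 at 0.004. With a skeletal muscle covariate Col16a1 was 0.47, Col1a1 -0.57, Col1a2 -0.17 and Col4a5 0.10, Col3a1 was 0.086, and the type IV and other medians were 0.56 and 0.29. With types VII, XV, XVII and XVIII left out, the median of the others was -0.00018.

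Without CON replicate 1 and CRS replicate 2, 16 genes had no overlap (41.6% of all genes did), the medians were -0.41, -0.24 and -0.27, and Col16a1 was -0.55, Col18a1 -0.21, Col1a1 -0.71, Col4a1 -0.28, Col4a2 -0.24, Col5a1 -0.48, Col5a2 -0.15, Col6a1 -0.57, Col6a2 -0.78 and Col6a3 -0.25. The length and GC correction was added to that, an alternative chosen after seeing the data. Then 15 had no overlap (13 higher, 2 lower, against 36.1% of all genes in either direction). Col16a1 was 0.023, Col1a1 -0.20, Col26a1 0.14, Col6a1 -0.13 and Col6a2 -0.28. With each library left out in turn, genes without overlap numbered 2 to 11, most without CRS replicate 2 (34.8% of all genes then). The fibrillar median ranged from -0.03 to 0.59, type IV from -0.33 to 0.47 and other from -0.21 to 0.32. Single genes ranged from -0.58 to 1.13 (Col1a1), -0.01 to 1.501 (Col1a2), -0.056 to 0.67 (Col17a1), -0.19 to 0.65 (Col18a1), -0.33 to 0.44 (Col4a1), -0.33 to 0.60 (Col4a2), -0.00039 to 0.86 (Col5a1), 0.11 to 0.86 (Col5a2), 0.15 to 1.69 (Col3a1), 0.79 to 1.51 (Col10a1), -0.93 to -0.17 (Col4a5), -0.36 to -0.19 (Col26a1), -0.13 to 0.98 (Col6a1), -0.26 to 0.87 (Col6a2), 0.17 to 0.906 (Col6a3) and -0.54 to 0.32 (Col16a1). Log2 ratio differences ranged from -0.74 to -0.013 (Col1a1/Col1a2), 0.017 to 0.931 (Col3a1/Col1a1), -0.26 to 0.11 (Col5a1/Col5a2), -0.17 to 0.003 (Col4a1/Col4a2), -0.008 to 0.17 (Col6a1/Col6a2) and -0.24 to 0.30 (Col6a3/Col6a1). Over all settings Col10a1 ranged from 0.273 to 2.287, lowest with a pseudocount of 1. Scarce collagens rest on few fragments, such as 10 to 41 per library for Col6a5, which limits what they can show.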
